A study of Macaca mulatta with 30 samples.

Results

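Cerebral cortex and pancreas of the rhesus macaque (Macaca mulatta) were compared as a pair with fibroblasts, testis and thymus, to find genes whose signal in both tissues lay above, or below, that in each of the other 3. All 30 arrays of the series entered the comparison, 12 from cerebral cortex and pancreas and 18 from fibroblast, testis and thymus. A gene was counted as higher in both when the cortex and the pancreas mean each exceeded the fibroblast, testis and thymus means, and the least certain of these 6 differences passed the test (limma with center as a term, largest of the 6 p-values, Benjamini-Hochberg adjusted p under 0.05). Genes lower in both had all 6 differences below 0. Of 14132 genes measured, 784 were higher in both (5.55%) and 1425 were lower in both (10.1%).

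The groups were cerebral cortex RNA, pancreas RNA, RNA of an immortalized fibroblast line, testis RNA and thymus RNA, all from rhesus macaques, with no treatment. The cortex RNA came from Yerkes, the fibroblast RNA from Nebraska, and the pancreas, testis and thymus RNA from Oregon. Each tissue was 1 RNA, split into 2 aliquots for each of 3 centers (Oregon, Nebraska and Yerkes) and hybridized to the rhesus GeneChip, which gave 6 arrays per tissue. The errors and p-values therefore cover labeling and hybridization, and not differences between animals or preparations.

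Neurons, endocrine cells and pancreatic acinar cells all release stored proteins on demand. Neurons and islet cells pack peptides into dense-core granules, where prohormone convertases trim them and granins help to condense them, and synaptotagmins, complexins and Rab GTPases carry the granule to the membrane. Mature neurons no longer divide and adult acinar cells divide rarely, whereas thymus, testis and a cultured line hold many dividing cells.

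The labels of both tissues held against their markers. The mean log2 signal of 5 neuron markers was 11.9 to 12.5 on the cortex arrays and 5.88 to 6.66 on the pancreas arrays, and that of 9 acinar markers was 5.73 to 6.61 on the cortex arrays and 14.1 to 14.6 on the pancreas arrays. Of these, 0 of 5 neuron and 0 of 9 acinar markers were higher in both, which for lists this short is not far from the 5.55% of all genes. The fibroblast, Leydig and Sertoli cell and thymocyte markers were highest in their own tissues, and so were 2 of the 3 germ cell markers measured. DAZL and ZPBP had means of 7.96 and 7.72 in testis and at most 5.15 and 5.56 in any other tissue. PRM1, the protamine of late sperm cells, had 6.35 in testis and 6.54 to 6.99 elsewhere. AMH, the Sertoli cell hormone, had 12.28 in testis and at most 6.98 in any other tissue. The ages of the animals are not given, and the maturity of the testis was not tested. The pancreas arrays had the narrowest spread of signal over probesets (SD 1.24 to 1.29 on the log2 scale), against 1.37 to 1.51 in cortex, 1.5 to 1.56 in fibroblast, 1.43 to 1.55 in testis and 1.44 to 1.55 in thymus. The authors found larger scaling factors and larger standardized errors in the pancreas arrays than in the other tissues. They judged the pancreas data to be of lower quality and advised caution, and every call here rests on the pancreas mean as well as the cortex mean. The 3′ minus 5′ difference of the control probesets averaged 0.66 ± 0.29 in cortex, 1.70 ± 0.44 in pancreas, 1.91 ± 0.55 in fibroblast, 0.72 ± 0.30 in testis and 0.36 ± 0.40 in thymus (log2, SD, n = 6). Mean signal per array was 6.32 to 6.33 at Oregon, 6.35 to 6.39 at Nebraska and 6.90 to 6.93 at Yerkes, so center was a term in every fit unless said otherwise.

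The size of each call was given as a gap. For genes higher in both it was the lower of the cortex and pancreas means minus the highest of the other 3 means, and for genes lower in both it was the lowest of the other 3 means minus the higher of the cortex and pancreas means. The gap of the 784 higher genes had a median of 0.43 on the log2 scale and reached 3.80, with 71 genes at 1 or more. The gap of the 1425 lower genes had a median of 0.55 and reached 3.15, with 226 genes at 1 or more. In whole tissue, fewer cells of a type and less RNA per cell cannot be told apart.

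**Figure D1:**
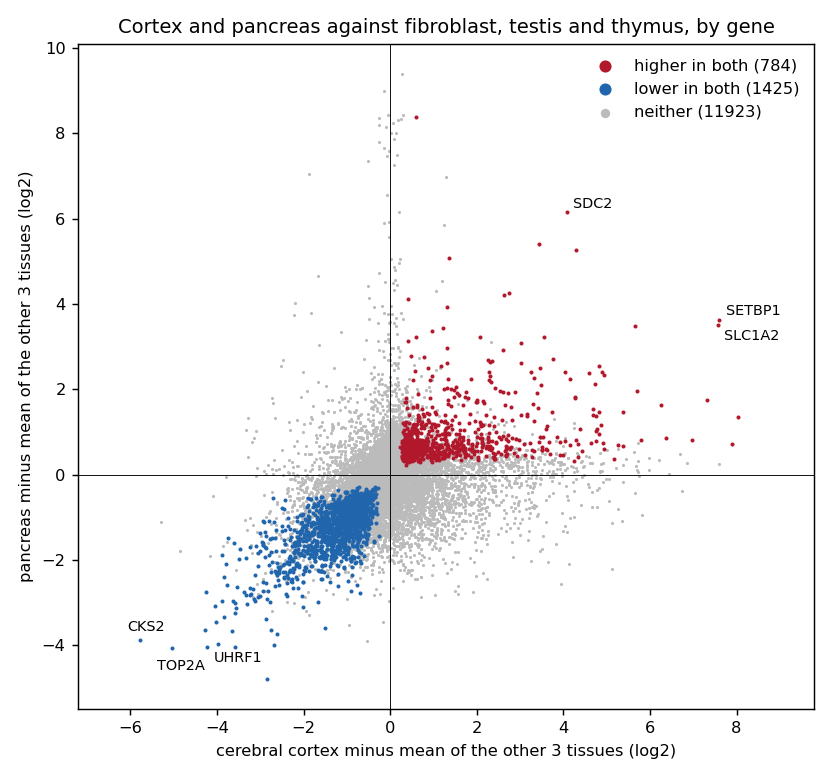
Cerebral cortex minus the mean of fibroblast, testis and thymus (x axis, log2) against pancreas minus the same mean (y axis, log2), 1 point per gene. Genes higher in both (784, red) occupy the upper right and genes lower in both (1425, blue) the lower left, where CKS2 and TOP2A lie farthest out, while genes high in cortex or pancreas alone run along the axes (gray).

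The gene with the widest gap among those higher in both was SDC2, which encodes syndecan-2, a cell-surface heparan sulfate proteoglycan. Its log2 signal had a lowest, median and highest value of 9.18, 9.25 and 9.52 in cortex and of 11.25, 11.39 and 11.42 in pancreas. The other tissues gave 4.45, 4.56 and 5.21 in fibroblast, 5.16, 5.34 and 5.88 in testis and 5.37, 5.46 and 5.74 in thymus. No cortex or pancreas array overlapped any other array, and the gap was 3.80 ± 0.09 (SE), or 13.9-fold. The other probesets of SDC2 gave gaps of 3.61 and 3.63.

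SETBP1, whose protein binds the SET oncoprotein, had log2 signals of 12.16, 12.43 and 12.75 in cortex and of 8.18, 8.53 and 8.64 in pancreas. The values were 4.31, 4.71 and 5.19 in fibroblast, 4.53, 4.94 and 5.39 in testis and 4.33, 4.80 and 5.24 in thymus. Both tissues lay clear of the other 3, with cortex far above pancreas, and the gap was 3.50 ± 0.10 (11.3-fold). The other SETBP1 probesets gave gaps of 1.01 ± 0.12 and of 0.27 ± 0.09, and the smaller of these did not pass the test (limma adjusted p = 0.084).

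SLC1A2 encodes the main glutamate transporter of astrocytes. Its log2 signal was 12.66, 12.85 and 13.26 in cortex and 8.60, 8.75 and 9.25 in pancreas, against 5.26, 5.36 and 5.85 in fibroblast, 5.27, 5.33 and 5.87 in testis and 4.69, 5.08 and 5.39 in thymus. The pancreas arrays were thus well above the other 3 tissues while 4.04 below cortex, and the gap was 3.38 ± 0.07 (10.4-fold). The epithelial tight-junction protein CLDN10 ran the other way round between the pair, with 8.17, 8.45 and 8.87 in cortex and 10.31, 10.36 and 10.59 in pancreas. It gave 4.39, 4.73 and 5.21 in fibroblast, 5.21, 5.47 and 5.91 in testis and 4.49, 4.74 and 5.21 in thymus, a gap of 2.92 ± 0.09 (7.58-fold).

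Of the leading genes, RBP4, RAB26 and TPD52 were close to equal in the pair, while CHRM3 was 0.85 higher in cortex. RBP4, the carrier of retinol in plasma, had log2 signals of 8.18, 8.42 and 8.90 in cortex and 8.45, 8.66 and 9.19 in pancreas, against 5.53, 5.72 and 6.30 in fibroblast, 5.45, 5.58 and 6.08 in testis and 5.73, 5.90 and 6.48 in thymus (gap 2.44 ± 0.07). RAB26, a small GTPase of secretory granules and synaptic vesicles, had 8.39, 8.47 and 9.17 in cortex and 8.68, 8.84 and 9.38 in pancreas, against 6.08, 6.27 and 6.84 in fibroblast, 5.94, 6.15 and 6.74 in testis and 5.78, 6.01 and 6.81 in thymus (gap 2.26 ± 0.06). TPD52, a protein linked to exocytosis in acinar cells, had 9.27, 9.41 and 9.58 in cortex and 9.33, 9.43 and 9.64 in pancreas, against 4.92, 5.20 and 5.70 in fibroblast, 7.01, 7.40 and 7.82 in testis and 6.02, 6.37 and 6.89 in thymus (gap 1.99 ± 0.11). In TPD52 the cortex and pancreas arrays overlapped over most of their range, and testis was the nearest other tissue. CHRM3, the muscarinic acetylcholine receptor that drives acinar secretion, had 8.44, 8.52 and 8.79 in cortex and 7.31, 7.75 and 8.05 in pancreas, against 4.95, 5.17 and 5.81 in fibroblast, 5.21, 5.31 and 6.0 in testis and 4.38, 5.16 and 5.72 in thymus (gap 2.20 ± 0.12). A second probeset also passed for RBP4 (gap 2.84), TPD52 (2.26) and CHRM3 (1.37).

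The remaining named genes of the 15 widest gaps were the J-domain protein DNAJC25 (2.43 ± 0.10), the ubiquitin ligase RNF128 (2.32 ± 0.10), SBNO1 (2.01 ± 0.11), the deubiquitinase OTUD3 (1.99 ± 0.10) and NCL, the nucleolar protein nucleolin (2.45 ± 0.09); the other 2 carried only LOC identifiers. NCL stood apart, because its other probesets went the other way. Their cortex and pancreas means were 6.14 and 5.28 for one and 5.45 and 4.92 for the other, against 6.44 to 6.89 and 5.55 to 5.95 in the other 3 tissues, and its direction is uncertain.

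**Figure D2:**
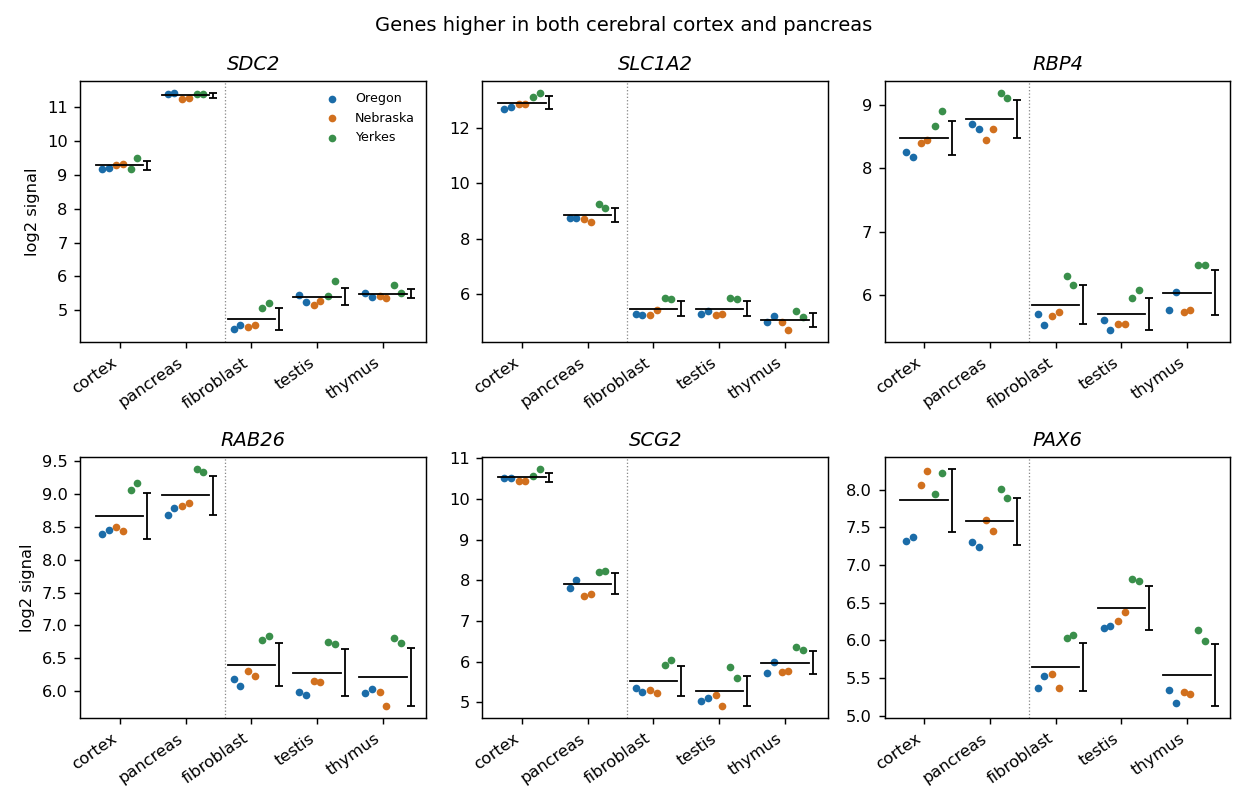
Log2 signal (y axis) of 6 genes higher in both, with the 6 arrays of each tissue colored by center; horizontal lines are means and bars show 1 SD. In every panel the cortex and pancreas arrays lie above all arrays of fibroblast, testis and thymus.

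The dense-core granule and prohormone-processing genes were the list of the 15 with the largest share of members higher in both. Of 34 genes listed, 17 were measured under their symbols, and 11 of them were higher in both (64.7%) and 0 lower, against 5.55% of all genes. The 15 lists were chosen with earlier results of these data known, so the share of members called in each list is a description only. Its median joint difference, the mean of cortex and pancreas minus the mean of the other 3 tissues, was 1.98 on the log2 scale, against -0.01 over all genes. Cortex lay above pancreas in 10 of the 11, by a median of 2.17.

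SCG2 encodes secretogranin II, a granin of the granule core. Its log2 signal was 10.43, 10.51 and 10.74 in cortex and 7.62, 7.91 and 8.22 in pancreas, against 5.23, 5.33 and 6.04 in fibroblast, 4.91, 5.14 and 5.88 in testis and 5.71, 5.88 and 6.35 in thymus. All 12 arrays of the pair were above the other 18, and the gap was 1.94 ± 0.08 (3.85-fold). CHGB, chromogranin B, had 10.57, 10.96 and 11.24 in cortex and 7.01, 7.09 and 7.35 in pancreas, against 4.01, 4.12 and 5.16 in fibroblast, 6.07, 6.29 and 6.56 in testis and 4.40, 4.94 and 5.27 in thymus. Testis was its nearest tissue, and its gap of 0.81 ± 0.13 was smaller than that of SCG2.

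PCSK2, the convertase that cuts proglucagon and other prohormones, had 7.89, 8.43 and 8.68 in cortex and 7.39, 7.58 and 8.0 in pancreas, against 5.79, 6.0 and 6.53 in fibroblast, 5.21, 5.28 and 6.12 in testis and 5.18, 5.38 and 5.98 in thymus. The pair overlapped each other and no other tissue (gap 1.55 ± 0.08, second probeset 1.47). PCSK1N, whose product proSAAS inhibits the related convertase 1, had 9.33, 9.55 and 10.13 in cortex and 7.26, 7.87 and 8.37 in pancreas, against 5.99, 6.35 and 6.69 in fibroblast, 5.83, 6.09 and 6.67 in testis and 5.86, 6.10 and 6.81 in thymus (gap 1.49 ± 0.09).

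SYT4, a synaptotagmin of dense-core vesicles, was 11.21, 11.31 and 11.53 in cortex and 6.41, 6.64 and 7.01 in pancreas, against 4.90, 4.98 and 5.45 in fibroblast, 4.63, 5.01 and 5.56 in testis and 4.73, 4.99 and 5.58 in thymus (gap 1.61 ± 0.09). CPLX2, a complexin that holds the release machinery ready, was 9.74, 10.26 and 10.84 in cortex and 7.47, 7.52 and 8.31 in pancreas, against 6.39, 6.57 and 7.02 in fibroblast, 6.22, 6.46 and 7.28 in testis and 6.16, 6.54 and 7.57 in thymus. The lowest CPLX2 array of the pair was below the highest thymus array over all centers but not within any center, and the gap was 1.00 ± 0.08.

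CADPS and CADPS2, which prime granules for release, RAB3A, DOC2B and BAIAP3 completed the 11, with gaps of 0.33 to 0.69. The 6 that did not pass had their highest mean in cortex, with pancreas near another tissue. For VGF, a granin-like peptide precursor, the means were 9.8 in cortex, 6.85 in pancreas, 6.84 in fibroblast, 6.42 in testis and 6.15 in thymus, and for STX1A, the syntaxin of exocytosis, they were 9.15, 6.42, 6.13, 6.45 and 6.06 in the same order.

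Of 12 peptide hormone and neuropeptide genes measured, 3 were higher in both (25%) and 0 lower. GRP, gastrin-releasing peptide, had log2 signals of 6.60, 6.81 and 7.25 in cortex and 5.65, 5.91 and 6.43 in pancreas, against 4.45, 4.93 and 5.24 in fibroblast, 4.53, 4.66 and 5.33 in testis and 4.54, 4.75 and 5.51 in thymus (gap 1.02 ± 0.09). VIP (gap 0.77 ± 0.09) and CARTPT (0.63 ± 0.10), both peptides of neurons, were likewise higher in cortex than in pancreas and nearest to thymus. All 3 were dim in pancreas, with means of 5.94 (GRP), 5.80 (VIP) and 5.87 (CARTPT). The mean signal of all genes had a median of 7.11. At such dim signals the typical probeset was also higher in pancreas than in the other tissues, as given below. The islet hormone GCG was not shared, with a mean of 4.26 in cortex, 12.48 in pancreas, 4.69 in fibroblast, 4.07 in testis and 4.26 in thymus.

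Among 12 neuroendocrine transcription factors measured, 4 were higher in both (33.3%) and 1 was lower. PAX6, a regulator of forebrain and islet development, had 7.32, 8.01 and 8.25 in cortex and 7.23, 7.53 and 8.01 in pancreas, against 5.36, 5.54 and 6.07 in fibroblast, 6.17, 6.31 and 6.81 in testis and 5.17, 5.33 and 6.13 in thymus (gap 1.15 ± 0.10, second probeset 1.53). The pair overlapped each other and stood apart from the rest. PROX1 (gap 0.64 ± 0.13), SCRT1 (0.40 ± 0.07) and MYT1L (0.36 ± 0.08) were also higher, although SCRT1 and MYT1L did not pass after quantile normalization of all arrays. The other probesets of MYT1L gave gaps of -0.21 and -0.25, with pancreas below testis. RCOR1, the corepressor that works with the REST silencer of neuronal genes, was the member lower in both, with 6.66, 6.81 and 7.19 in cortex and 6.41, 6.59 and 7.14 in pancreas, against 7.38, 7.60 and 8.17 in fibroblast, 8.05, 8.27 and 8.59 in testis and 8.23, 8.63 and 8.81 in thymus (gap 0.83 ± 0.09). REST itself was not measured under its symbol.

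The splicing and RNA-binding regulators showed members in both directions, 5 of 14 higher (35.7%) and 1 lower. The higher ones were KHDRBS2 (gap 0.64 ± 0.09), CELF3 (0.47 ± 0.07), ELAVL4 (0.44 ± 0.12), NOVA2 (0.43 ± 0.08) and CELF5 (0.32 ± 0.07), all known from neurons. ELAVL4 and CELF5 did not pass after quantile normalization of all arrays. PTBP1, which represses neuronal exons, was lower in both, with 8.02, 8.74 and 9.13 in cortex and 9.47, 9.96 and 10.32 in pancreas, against 11.01, 11.08 and 11.66 in fibroblast, 10.56, 11.24 and 11.66 in testis and 11.42, 11.74 and 12.09 in thymus. Its gap was 1.31 ± 0.09. Of its other probesets 2 were lower as well (1.38 and 0.50), while 1 had a cortex mean of 8.27 and a pancreas mean of 7.05 between 6.34 in fibroblast and 8.89 in thymus.

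Ion channels of excitable cells gave 10 of 26 higher (38.5%) and 0 lower, with a median joint difference of 0.86. KCNJ6, an inward rectifier gated by G proteins, had 8.51, 8.75 and 8.99 in cortex and 7.07, 7.28 and 7.91 in pancreas, against 5.75, 6.12 and 6.50 in fibroblast, 5.74, 5.93 and 6.58 in testis and 5.87, 6.06 and 6.80 in thymus (gap 1.20 ± 0.08). KCNMB2 (0.82 ± 0.08), KCNC1 (0.73 ± 0.09), KCNQ3 (0.59 ± 0.09) and KCNB2 (0.48 ± 0.08) are potassium channel subunits, and CACNA1B (0.46 ± 0.08) is the pore of the N-type calcium channel, whose second probeset (0.01) did not pass. The sodium channel SCN2A was high in cortex alone, with means of 9.54 in cortex, 5.88 in pancreas, 5.99 in fibroblast, 5.93 in testis and 5.46 in thymus.

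In glutamate, GABA and amino acid metabolism, 7 of 22 were higher (31.8%) and 0 lower, with a median joint difference of 1.07. Besides SLC1A2 these were the glutaminase GLS2 (gap 0.84 ± 0.06), the cystine transporter subunit SLC3A1 (0.79 ± 0.13), the glutamine transporter SLC38A3 (0.46 ± 0.07), asparagine synthetase ASNS (0.42 ± 0.07), the GABA-making enzyme GAD1 (0.31 ± 0.08) and glutamine synthetase GLUL (0.27). The second SLC3A1 probeset had a gap of -0.03 and did not pass. Of the other GAD1 probesets 1 passed (0.67). The remaining 1 had a gap of -0.21, with means of 11.05 in cortex, 5.01 in pancreas and 5.22 in testis. GAD1 lost its call without any 1 of 5 arrays (1 fibroblast aliquot at each center and both Oregon pancreas aliquots), where its gap was 0.27 to 0.30.

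Of 21 genes of ion, bicarbonate and water transport, 5 were higher (23.8%) and 0 lower. SLC4A4, a sodium bicarbonate cotransporter of pancreatic ducts and astrocytes, had 6.59, 7.18 and 7.33 in cortex and 7.21, 7.76 and 7.83 in pancreas, against 5.40, 5.50 and 6.01 in fibroblast, 5.24, 5.33 and 6.04 in testis and 5.47, 5.49 and 6.31 in thymus (gap 1.31 ± 0.14, second probeset 0.51). CA4, a membrane carbonic anhydrase, had 7.35, 7.86 and 8.40 in cortex and 7.67, 7.98 and 8.56 in pancreas, against 6.19, 6.39 and 7.02 in fibroblast, 5.88, 6.06 and 6.84 in testis and 6.10, 6.43 and 7.10 in thymus (gap 1.29 ± 0.07). Both were slightly higher in pancreas. FXYD7 (0.63 ± 0.08), SLC4A10 (0.53 ± 0.11) and the zinc transporter SLC30A3 (0.44 ± 0.09) were higher in cortex than in pancreas, and SLC4A10 did not pass after quantile normalization of all arrays.

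The mitochondrial list had 4 of 22 members higher (18.2%) and 0 lower. They were pyruvate carboxylase PC (gap 0.59 ± 0.06), the coactivators PPARGC1B (0.46 ± 0.06) and PPARGC1A (0.45 ± 0.09), and citrate synthase CS (0.44 ± 0.07), with the 3 other PPARGC1B probesets at -0.07 to 0.11 and not passing. PPARGC1A did not pass after quantile normalization of all arrays. NDUFA4, a respiratory chain subunit, was highest in cortex, with means of 11.68 in cortex, 9.74 in pancreas, 9.90 in fibroblast, 9.45 in testis and 9.87 in thymus.

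Folding and export genes of the endoplasmic reticulum serve the general secretory route. Of 34 measured, 0 were higher in both, a share not far from the 5.55% of all genes, and 1, the disulfide isomerase PDIA3, was lower (gap 0.51 ± 0.10). The list's median joint difference was -0.35, and it turned to 0.08 after quantile normalization of all arrays and to 0.19 after cyclic loess, under both of which PDIA3 changed sign as well; after cyclic loess 1 member was higher in both. TMED6, a cargo receptor, had means of 4.91 in cortex, 12.97 in pancreas, 5.23 in fibroblast, 4.83 in testis and 5.46 in thymus, and XBP1, a regulator of secretory capacity, had 7.63, 11.47, 9.37, 8.54 and 9.97 in the same order. Both were far higher in pancreas than in cortex.

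**Figure D3:**
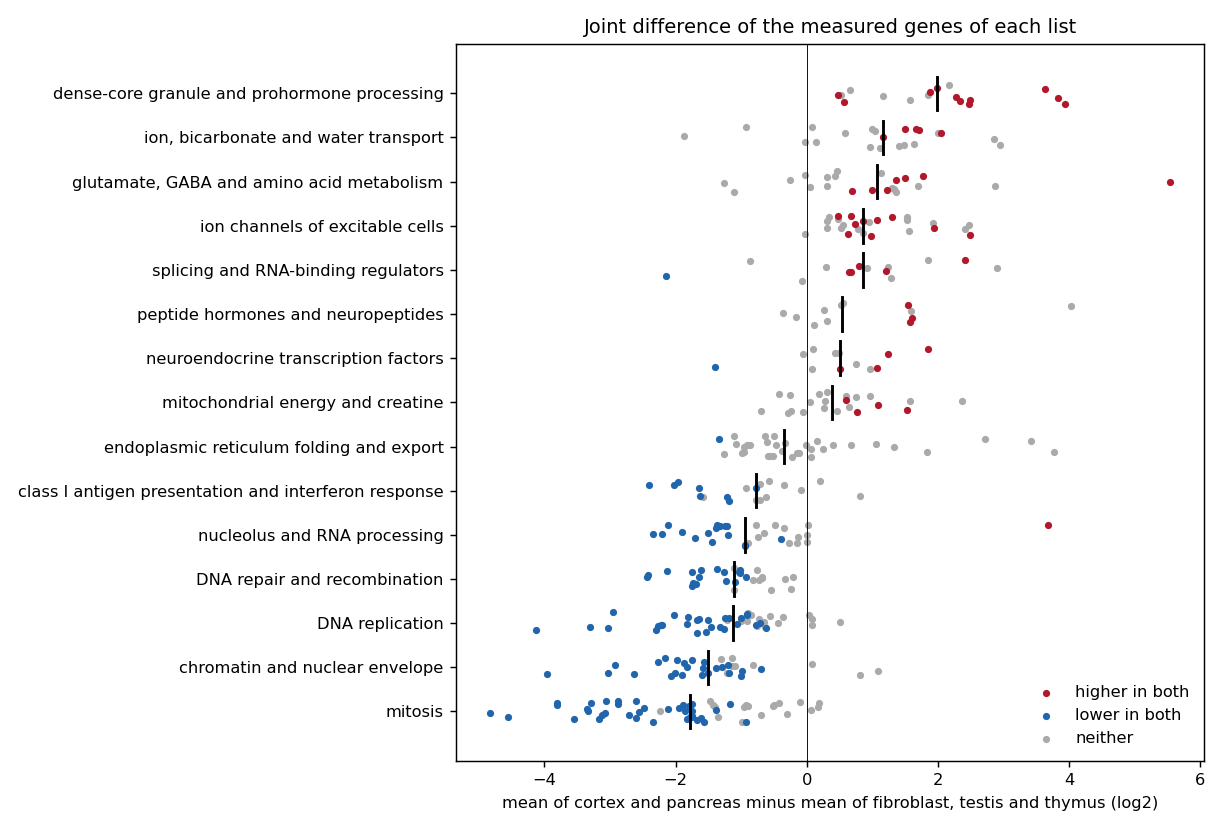
Joint difference (x axis, log2, mean of cortex and pancreas minus mean of fibroblast, testis and thymus) of every measured member of the 15 gene lists (rows), 1 point per gene. Genes higher in both (red) are most frequent in the dense-core granule row, with 11 of 17, and genes lower in both (blue) fill the cell-division rows, with 37 of 55 mitosis genes.

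Among genes lower in both, the widest gaps belonged to the machinery of cell division. CKS2, a subunit of cyclin-dependent kinases, had log2 signals of 4.88, 5.07 and 5.11 in cortex and 6.68, 6.94 and 7.19 in pancreas. The other tissues gave 10.72, 10.81 and 11.12 in fibroblast, 9.56, 10.20 and 10.28 in testis and 11.34, 11.46 and 11.64 in thymus. The 12 arrays of the pair lay below all other 18, with cortex the lowest, and the gap was 3.15 ± 0.09 (8.9-fold).

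TOP2A, the topoisomerase that untangles chromosomes at mitosis, had 4.25, 4.84 and 5.31 in cortex and 5.45, 5.73 and 6.29 in pancreas, against 9.45, 9.57 and 10.10 in fibroblast, 7.62, 8.54 and 8.85 in testis and 11.30, 11.48 and 11.77 in thymus (gap 2.61 ± 0.12, second probeset 2.20). CENPF, a kinetochore protein, had 5.21, 5.59 and 5.90 in cortex and 4.75, 5.10 and 5.63 in pancreas, against 8.58, 8.78 and 9.17 in fibroblast, 7.59, 8.26 and 8.50 in testis and 10.43, 10.57 and 10.70 in thymus (gap 2.57 ± 0.10, second probeset 0.90). In both genes thymus was the highest tissue and testis the nearest to the pair.

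MCM3, part of the replicative helicase, had 5.04, 5.11 and 5.94 in cortex and 5.44, 5.81 and 6.45 in pancreas, against 8.12, 8.53 and 8.94 in fibroblast, 8.11, 8.27 and 8.71 in testis and 9.56, 9.94 and 10.19 in thymus (gap 2.44 ± 0.08). PCNA, the sliding clamp of DNA polymerases, had 7.15, 7.32 and 7.65 in cortex and 7.47, 7.55 and 7.78 in pancreas, against 10.16, 10.34 and 10.88 in fibroblast, 9.57, 9.65 and 10.08 in testis and 11.12, 11.28 and 11.60 in thymus (gap 2.14 ± 0.07). The pair overlapped each other in both genes. UHRF1, which maintains DNA methylation at replication, had 3.76, 4.46 and 4.87 in cortex and 4.17, 4.57 and 5.29 in pancreas, against 7.77, 8.58 and 8.85 in fibroblast, 6.91, 6.99 and 7.37 in testis and 10.20, 10.64 and 10.79 in thymus (gap 2.41 ± 0.11).

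HMGB2, a DNA-bending chromatin protein, had 5.77, 6.11 and 6.42 in cortex and 6.53, 6.69 and 6.95 in pancreas, against 8.82, 9.09 and 9.67 in fibroblast, 9.66, 9.81 and 10.11 in testis and 11.87, 12.01 and 12.57 in thymus (gap 2.43 ± 0.09). Its second probeset had a gap of 0.08 and did not pass. The other named genes of the 15 widest gaps were SEPTIN6 (2.29 ± 0.10), CKAP2 (2.22 ± 0.09), TMSB15A (2.21 ± 0.09), CMTM3 (2.15 ± 0.08), the chromatin remodeler HELLS (2.13 ± 0.11), the condensin subunit SMC4 (2.10 ± 0.06) and the kinase MELK (2.00 ± 0.11), with 1 LOC identifier. Both other probesets of CMTM3 passed (1.29 and 1.63), while the second probesets of SEPTIN6 (-0.20), CKAP2 (-0.22) and HELLS (-0.13) did not. The probesets of SMC4 disagreed, since 2 of its 5 others were lower in both (2.29 and 0.78), 3 had their highest mean in cortex, and 1 of those 3 was called higher in both with a gap of 0.35. Thymus was the highest tissue in 14 of the 15 and testis the nearest to the pair in 12.

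**Figure D4:**
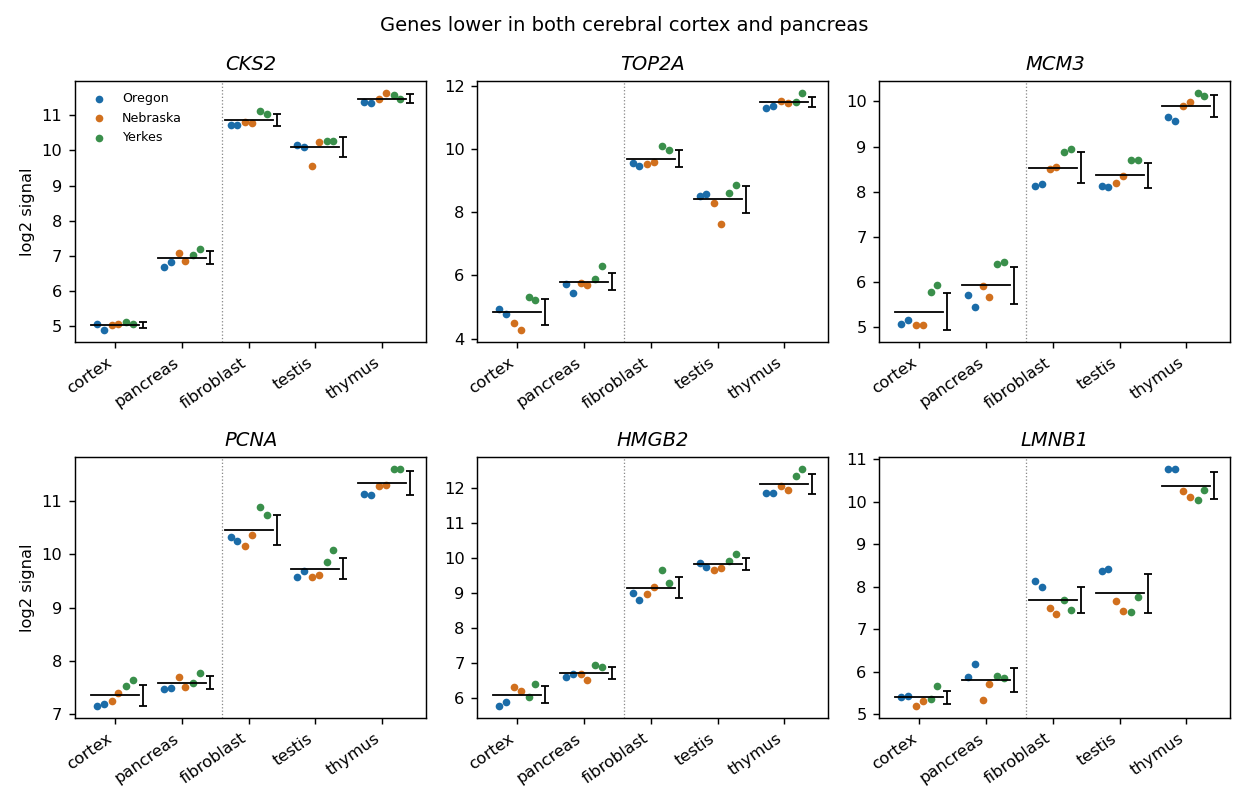
Log2 signal (y axis) of 6 genes lower in both, with the 6 arrays of each tissue colored by center; horizontal lines are means and bars show 1 SD. In every panel the cortex and pancreas arrays lie below all arrays of fibroblast, testis and thymus, and thymus is highest.

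Over the list of mitosis genes, 37 of 55 measured were lower in both (67.3%) and 0 higher, against 10.1% of all genes, with a median joint difference of -1.78. Thymus was the highest tissue in all 37 and testis the nearest in 34. CDK1, the kinase that starts mitosis, had means of 4.27 in cortex, 4.71 in pancreas, 7.80 in fibroblast, 6.49 in testis and 9.21 in thymus, and MKI67, the proliferation antigen, had 5.82, 6.15, 8.53, 6.99 and 10.56 in the same order. Several members did not follow this order. ANLN, a cytokinesis scaffold, had 6.83 in cortex, 4.26 in pancreas, 9.29 in fibroblast, 6.23 in testis and 7.83 in thymus, and BUB3, a checkpoint protein, had 7.72, 10.41, 11.17, 8.81 and 6.67 in the same order.

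The DNA replication list had 28 of 44 lower (63.6%) and 0 higher, with a median joint difference of -1.12. After MCM3, UHRF1 and PCNA came MCM2 (gap 1.85 ± 0.08), the ribonucleotide reductase subunit RRM1 (1.3 ± 0.10) and MCM5 (1.3 ± 0.07), whose second probeset (-0.12) did not pass. Thymus was the highest tissue in 24 of the 28. DNA repair and recombination had 17 of 28 lower (60.7%) and 0 higher, with a median joint difference of -1.10. XRCC5, the larger Ku subunit of end joining, had 8.55, 8.67 and 8.91 in cortex and 8.90, 8.93 and 9.15 in pancreas, against 11.33, 11.49 and 11.88 in fibroblast, 10.55, 10.61 and 11.06 in testis and 11.36, 11.52 and 11.74 in thymus (gap 1.75 ± 0.06). It was followed by BARD1, the partner of BRCA1 (1.55 ± 0.08), RAD51AP1 (1.22 ± 0.09), the mismatch repair genes MSH6 (1.17 ± 0.07) and PMS1 (0.95 ± 0.06), and FANCI (0.93 ± 0.10), and the second MSH6 probeset (0.11) did not pass.

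Of chromatin and nuclear envelope genes 24 of 33 were lower in both (72.7%) and 0 higher, with a median joint difference of -1.5. After quantile normalization of all arrays the count was 15, and after cyclic loess 12, a smaller share than in the mitosis, DNA replication and DNA repair lists under both. LMNB1, lamin B1 of the nuclear lamina, had 5.19, 5.38 and 5.67 in cortex and 5.33, 5.87 and 6.18 in pancreas, against 7.36, 7.59 and 8.13 in fibroblast, 7.42, 7.71 and 8.43 in testis and 10.04, 10.26 and 10.77 in thymus (gap 1.88 ± 0.11). The lamin B receptor LBR (1.57 ± 0.07), the histone chaperone ASF1B (1.49 ± 0.07) and the histone variant H2AZ2 (1.37 ± 0.08) were lower as well. DNMT1 and SET were highest in cortex, with means of 9.31 and 11.66, and had 6.62 and 9.43 in pancreas.

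Nucleolar and RNA-processing genes had 16 of 29 lower (55.2%), among them the splicing factor HNRNPF (gap 1.54 ± 0.06), fibrillarin FBL (1.48 ± 0.08), SNRPF (1.34 ± 0.09), DDX39A (1.33 ± 0.08) and SNRPB (1.24 ± 0.10). The second HNRNPF probeset (-0.45) did not pass. The 1 higher member was NCL, whose probesets disagreed as given above. The median joint difference of the list was -0.94, and 14 members were lower after quantile normalization of all arrays and 10 after cyclic loess.

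Class I antigen presentation and interferon genes had 8 of 19 lower (42.1%) and 0 higher, with a median joint difference of -0.77. B2M, the light chain of class I molecules, had 10.34, 10.48 and 10.83 in cortex and 12.12, 12.21 and 12.37 in pancreas, against 12.21, 12.85 and 13.18 in fibroblast, 12.88, 12.92 and 13.37 in testis and 13.08, 13.15 and 13.61 in thymus. Cortex was far below the rest and pancreas only slightly, and the gap was 0.51 ± 0.09. PSME2 (0.83 ± 0.07), GBP1 (0.77 ± 0.08), OAS1 (0.69 ± 0.07), the immunoproteasome subunit PSMB8 (0.55 ± 0.06), ISG15 (0.42 ± 0.08), IRF1 (0.39) and TAP1 (0.28) made up the 8, each lower in cortex than in pancreas. Of 5 other GBP1 probesets 1 passed (0.87), and 1 had a cortex mean of 8.19 and a pancreas mean of 4.57, against 4.24 to 4.28 in the other 3 tissues. The second PSME2 probeset (-0.43) did not pass, and of 4 other OAS1 probesets 1 passed (0.65) while 3 had gaps below 0. In all, 3 members of the list were lower after quantile normalization of all arrays and 2 after cyclic loess, under which B2M and OAS1 changed sign.

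The gap was above 0 at each of the 3 centers for 776 of the 784 higher genes and for 1397 of the 1425 lower genes. At every center all 4 arrays of the pair lay beyond all 6 others for 638 of the higher genes and 1267 of the lower genes, while over all genes this was so for 4.95% and 9.52%. The calls used the same arrays, so these counts follow in large part from the rule and are a description only. Genes chosen at 1 center were also looked up at the others. Of the genes with a gap of 1 or more on the Oregon arrays, 81 of 81 higher and 253 of 254 lower had a gap above 0 at both other centers. Those chosen at Nebraska (75 higher and 210 lower) and at Yerkes (70 higher and 230 lower) all did. Of all 14132 genes, 1375 had a gap above 0 at all 3 centers in the higher direction and 1754 in the lower direction. The joint difference varied with the center for 17.2% of all genes and for 27 of the 95 named genes, each of which had the same sign at all 3 centers. The widest range over centers among these was 0.80, for SLC4A4.

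Probesets not used for the calls gave a further measure on the same arrays. Of the 784 higher genes, 312 had a second probeset, and 114 of these (36.5%) were higher in both on it as well, against 4.28% of all second probesets. Of the 1425 lower genes, 866 had a second probeset and 280 of these (32.3%) were lower, against 7.86%. Among genes with a gap of 1 or more the counts were 20 of 29 higher and 79 of 133 lower. Of the 95 named genes 44 had other probesets, which all passed in 22, passed in part in 9 and did not pass in 13. The 13 were NCL, HMGB2, CKAP2, HELLS, HNRNPF, MCM5, MSH6, PSME2, SLC3A1, PDIA3, PPARGC1B, CACNA1B and MYT1L. The joint difference alone was a much looser measure, with 43.1% of genes higher and 44.4% lower, since 1 tissue was enough to move it.

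Cortex and pancreas were within 1 of each other on the log2 scale in 576 of the 784 higher genes, cortex was above pancreas by 1 or more in 178, and pancreas above cortex in 30. Among the 1425 lower genes they were within 1 in 1325. The tissue nearest to the pair among the higher genes was fibroblast in 343, testis in 255 and thymus in 186, and among the lower genes it was testis in 641, fibroblast in 519 and thymus in 265. At the threshold, PRDX6 (gap 0.36) and DZANK1 (0.31) were just inside and C19H19orf81 (0.28) and PRMT8 (0.26) just outside on the higher side, and LSG1 (0.24) was just inside and NOP53 (0.32) and KDM1A (0.19) just outside on the lower side.

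The direction of the calls moved with the mean signal of the probeset. With the probesets in 10 bins of equal size by mean signal, pancreas minus the mean of fibroblast, testis and thymus had a median of 0.23 in the dimmest bin, 0.32 in the third bin and -0.70 in the brightest, and cortex minus that mean had a median of 0.02, 0.07 and -0.37 in the same bins. The pancreas median was 0.23 to 0.32 in each of the 6 dimmest bins. The gaps of CELF5 (0.32) and MYT1L (0.36), dim genes with pancreas the nearer of the pair, were about that size. A gap is measured from the highest of fibroblast, testis and thymus and not from their mean, so the sizes compare only roughly. Other dim genes with pancreas the nearer of the pair had wider gaps, among them SLC4A10 (0.53), CARTPT (0.63), KHDRBS2 (0.64) and VIP (0.77). Genes higher in both were 10.1% of the fifth bin and 1.18% of the brightest, and genes lower in both were 0.409% of the dimmest and 21% of the brightest. Of the 784 higher genes, 592 lay above the median probeset signal of the tissue in both cortex and pancreas. Another 71 lay below it in both. Measured from the median of its members' bins, the median joint difference was 2.10 for dense-core granule genes and -1.65 for mitosis. It was -1.08 for DNA replication, -1.07 for chromatin and 0.14 for the endoplasmic reticulum list. This measure shrank the median of some lists, from 0.50 to 0.29 for neuroendocrine transcription factors and from -0.94 to -0.68 for nucleolar and RNA-processing genes. It widened that of others, from 0.54 to 1.06 for peptide hormones and neuropeptides and from 0.39 to 0.71 for the mitochondrial list. Of all calls 35.5% were in the higher direction, against 42.9% after quantile normalization of all arrays and 55.1% after cyclic loess. The part of this dependence, and of the 3′ to 5′ differences of the RNAs, in the counts of calls and in single gaps was not tested.

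**Figure D5:**
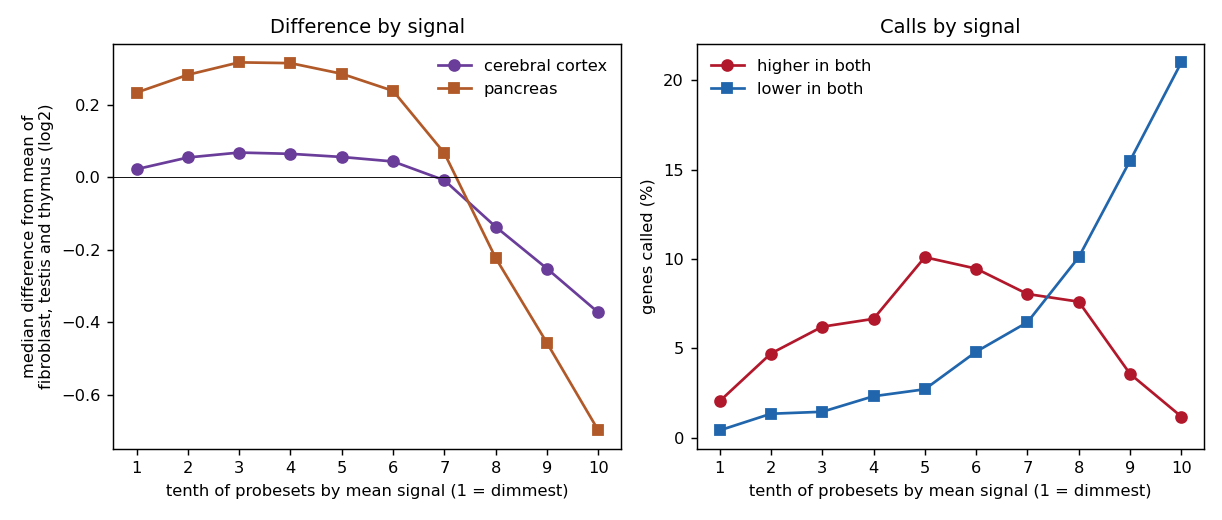
Median difference of cerebral cortex and of pancreas from the mean of fibroblast, testis and thymus (left, y axis in log2) and percent of genes called higher or lower in both (right), by bin of mean probeset signal from dimmest to brightest (x axis). Pancreas runs between 0.32 in the third bin and -0.70 in the brightest, and the share of genes lower in both reaches 21% there.

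Markers of cells that cortex and pancreas could share gave mixed values. The microglia and macrophage list had 0 of 6 and the endothelial list 0 of 6 members higher in both. For lists this short, that is not far from the 5.55% of all genes. Of glial and nerve sheath markers, MBP (gap 0.65), GFAP (0.50), S100B (0.65) and SOX10 (0.25) were higher in both together with SLC1A2, while SLC1A3 and PMP22 were not. The mean of MBP was 13.57 in cortex and 6.38 in pancreas, against 5.61 to 5.73 in the other 3 tissues, and that of SOX10 was 7.02 in cortex and 7.52 in pancreas, against 6.60 to 6.78. The mean of the 5 neuron markers in pancreas, 6.19, lay within the 5.63 to 6.31 of the other 3 tissues. Of 3 red cell markers HBB was higher in both with a gap of 0.30, and AHSP (0.03) and ALAS2 (0.23) did not pass. Of 5 duct markers the secreted phosphoprotein SPP1 was higher in both (1.49), while CFTR, MUC1, KRT7 and KRT19 were not. The part of glial or nerve cells within the pancreas RNA was not tested.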

How the data were processed

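The authors deposited log2 probeset signals of all 30 arrays, made by RMA summarization after background correction and quantile normalization within each center. No depth exists for arrays, and the number of arrays limits the precision. From 52865 probesets, 158 controls were left out, and 52707 were tested with limma 3.58.1 (R 4.3.3), with tissue and center as terms, over 6 contrasts. The largest of the 6 p-values was adjusted by Benjamini-Hochberg over all probesets. Each gene was represented by its probeset with the highest mean signal among 24956 probesets with 1 symbol. Symbols came from the platform annotation, and 24629 probesets matched RefSeq gene identifiers. Named genes were the 15 widest gaps per direction with a gap above 0 at each center, and the called members of 15 gene lists, with values for at most 6 per list. Members, lists and tests were chosen with earlier results of these data known. The fits were also run on simulated data with equal tissue means, independent normal noise per array and shifts added to some probesets. The simulation held no pancreas offset that changed with signal and no narrower pancreas spread. It therefore says nothing about how those features act on the calls. Alternatives changed the normalization, filter, center term, probeset choice, arrays and aliquot block. Promoter sequences were not analysed here.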

Additional observations from a re-analysis of the deposited data

Results flagged for a closer look

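Of 475 groups of 6 arrays, 1 for each named gene and tissue, 7 held an array whose distance from its nearest neighbor took up an unusually large share of the range of the group. Chance gives such an array in about 1 in 20 groups. The share is 0 where the array touches its neighbor and 1 where it makes up the whole range.

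In ASNS the share was 0.772, from a cortex array at Yerkes with a log2 signal of 9.27, above the 8.80 to 8.91 of the others. CKS2 had 2 such arrays, a cortex array at Oregon (share 0.653, 4.88 below 5.03 to 5.11) and a testis array at Nebraska (share 0.753, 9.56 below 10.1 to 10.28). In HELLS a cortex array at Yerkes had 5.52, above 4.85 to 5.07 (share 0.673), and in RNF128 a pancreas array at Nebraska had 9.17, above 9.04 to 9.07 (share 0.727). In SDC2 a thymus array at Yerkes had 5.74, above 5.37 to 5.51 (share 0.64), and in XRCC5 a pancreas array at Yerkes had 9.15, above 8.90 to 8.98 (share 0.68). These genes kept their calls without any 1 array.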

How the results depend on the processing

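Leaving out single arrays gave 717 to 816 genes higher in both, 1354 to 1447 lower, 6014 to 6115 with a higher joint difference and 6215 to 6294 with a lower one. Without the center term these counts were 116 and 652, and 4017 for the higher joint difference, and 28 of the 95 named genes lost their call. Genes higher in both numbered 494 without Oregon and 507 without Yerkes, 71 with a gap of at least 1, and 1375 where only a gap above 0 at each center was asked; genes lower in both numbered 226 with a gap of at least 1. In the brighter probesets alone 3565 genes had a higher joint difference. Cyclic loess and the demand that the second probeset pass were chosen after seeing the data: cyclic loess left 738 genes lower, of which 690 were among the 1425, and the second probeset left 114 higher and 280 lower. With the aliquot number as a replicate block the counts were 762 and 1392, and the block changed no call of a named gene. Pairs of aliquots of the same number had r of -0.06 to 0.09 at Oregon and Nebraska. At Yerkes single pairs deviated together or in opposite directions (r -0.31 to 0.35), with a median r of 0.001.

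Among the named genes, the gap changed sign for PDIA3 (-0.26 after quantile normalization of all arrays, -0.35 after cyclic loess), OAS1 (-0.087 after cyclic loess, -0.042 with the mean of probesets), B2M (-0.36 after cyclic loess), NCL (-0.0053 with the mean of probesets), and GBP1 (-3.95), MYT1L (-0.21) and GAD1 (-0.21) with the most variable probeset. For the 30 genes with the widest gaps, 1227 of 1228 results kept direction and call, NCL being the exception. Left-out single arrays ended the call of GAD1 (5 arrays, gap 0.27 to 0.30) and ELAVL4 (4 arrays, an aliquot each of pancreas and testis at Oregon and at Yerkes, 0.39 to 0.43). Besides these, 10 named genes lost their call after quantile normalization of all arrays and 10 after cyclic loess, 2 with the mean of probesets, 5 without Oregon, 4 without Nebraska and 4 without Yerkes. Apart from the probeset choices, which read other probes, the cause of these changes was not tested. Each tissue was 1 RNA, so no alternative covers the spread between animals.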

Other observations

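The class I heavy chain genes MAMU-A, MAMU-I and MAMU-AG, outside the lists, were among those lower in both and are given here because they were seen after the values were known. MAMU-A had mean log2 signals of 7.0 in cortex and 7.66 in pancreas, against 9.52 in fibroblast, 9.37 in testis and 9.45 in thymus (gap 1.72 ± 0.10, SE). MAMU-I had 7.16 in cortex and 8.61 in pancreas, against 10.24 in fibroblast, 11.3 in testis and 11.46 in thymus (gap 1.62 ± 0.10). MAMU-AG had 8.72 in cortex and 9.19 in pancreas, against 10.68 in fibroblast, 10.81 in testis and 10.98 in thymus (gap 1.5 ± 0.08). Class I genes of the macaque are near-identical copies, so these probesets may share signal and are uncertain as single genes.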
